A study of Mus musculus with 48 samples.

Results

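The coagulation and complement factors described here are 35 listed mouse genes whose proteins the liver secretes into plasma. They were measured on expression arrays of offspring liver. The members were listed by gene name. Of the 35, 33 had a probe set annotated to that gene alone and all 33 passed the filter on low values, among 13542 genes tested. C3, the central complement component, had no probe set listed in the annotation. Klkb1, which encodes plasma prekallikrein, had only a probe set annotated to several genes, so neither gene was measured. Fga had 2 probe sets of its own and the other 32 genes had 1. For Fga the probe set with the higher mean was used unless stated.

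Blood clotting is a cascade of serine proteases that ends in thrombin, which cuts fibrinogen into fibrin. Antithrombin, heparin cofactor II and the protein C pathway limit the cascade, and plasmin dissolves the clot. Complement is a second protease cascade: the lectin, classical and alternative routes lead to C3 cleavage, and the terminal components assemble a pore in target membranes. Hepatocytes make most of these proteins, and several of the genes, the fibrinogen genes among them, are induced in the acute phase response to inflammation.

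The study asked how the diet of the sire relates to gene expression in the liver of its offspring, and used the gene for ATF7, a stress-responsive transcription factor. Sires ate a control diet (CD) or a low protein diet (LPD) from 3 to 12 weeks of age. RNA came from the median liver lobe of offspring of either sex at 3 weeks of age, and 48 arrays fell into 6 groups of 8. The groups were wild-type offspring of CD sires, wild-type of LPD sires, ATF7+/- of CD sires, ATF7+/- of LPD sires, ATF7+/+ of CD sires and ATF7+/+ of LPD sires. The labels named no strain or dam and gave no sex for a single array. They kept wild-type and ATF7+/+ apart as separate genotypes without saying how these differ, so the 3 are called genotype labels below. The study describes the 8 arrays of a group as independent experiments. Values are log2 expression values, on which a difference of 1 is a doubling. In whole liver, fewer cells of a type and less RNA per cell cannot be told apart.

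A pair of arrays among the CD wild-type samples and a pair among the CD ATF7+/+ samples differed from each other less than any other pair of the same group did, and each pair was averaged and counted as 1 sample. This left 46 samples, with n = 7 in those groups and n = 8 in the other 4. The arrays also fell into 2 sets on the first principal component of 5591 unannotated probe sets, called set A (18 arrays) and set B (30 arrays). Of the 8 arrays of each group, 3 belonged to set A and the remaining 5 to set B, and no label mentions the split. Atf7 itself was lower in ATF7+/- than in ATF7+/+ livers by a log2 difference of -0.37 ± 0.06 (SE, adjusted p = 0.00124, limma over all genes). Neither label passed against wild-type. The difference from wild-type was -0.20 ± 0.06 in ATF7+/- (SE, adjusted p = 0.242, limma) and 0.17 ± 0.06 in ATF7+/+ (SE, adjusted p = 0.191, limma). The hepatocyte markers differed little between samples: the mean of 9 measured markers lay between 12.94 and 13.18 in every sample, and none of the 9 passed a test in any comparison. Of the 33 members, 22 passed a test of the difference between the array sets, 9 of them higher in set A, against 68.0% of all genes.

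The members varied to different degrees within a group. The SD within groups ran from 0.07 for Plg, which encodes plasminogen, to 0.49 for C8a, with a median of 0.16. It was under 0.2 for 20 of the 33 genes, and for 22 genes the lowest and highest of the 46 samples lay less than 1 log2 unit apart. The largest SDs within groups were those of C8a, C8b, C6 and C9, which are 4 of the 6 terminal complement genes. The other 2, C8g and Hc, had SDs of 0.28 and 0.22. Each group mixed both array sets, which adds to these SDs. With a mean for each group and set, the SD went from 0.21 to 0.07 for F2, the prothrombin gene, and from 0.49 to 0.35 for C8a. For C8b it changed little (0.35 and 0.34). In that fit Mbl1 and F11 (both 0.27) lay above C9 (0.26). C8a, the alpha chain of component 8, ranged from 9.26 to 11.46 over the samples, and C6, another pore component, ranged from 7.16 to 9.31. C9, the subunit that forms the pore wall, ranged from 9.01 to 10.86. Kng1, the kininogen gene, ranged only from 12.73 to 13.04, and F12, which encodes the factor XII protease that kininogen helps to activate, from 11.27 to 11.72. The 6 group means of a gene lay at most 0.69 apart, for C6, and the median of that distance over the 33 genes was 0.20.

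**Figure D1:**
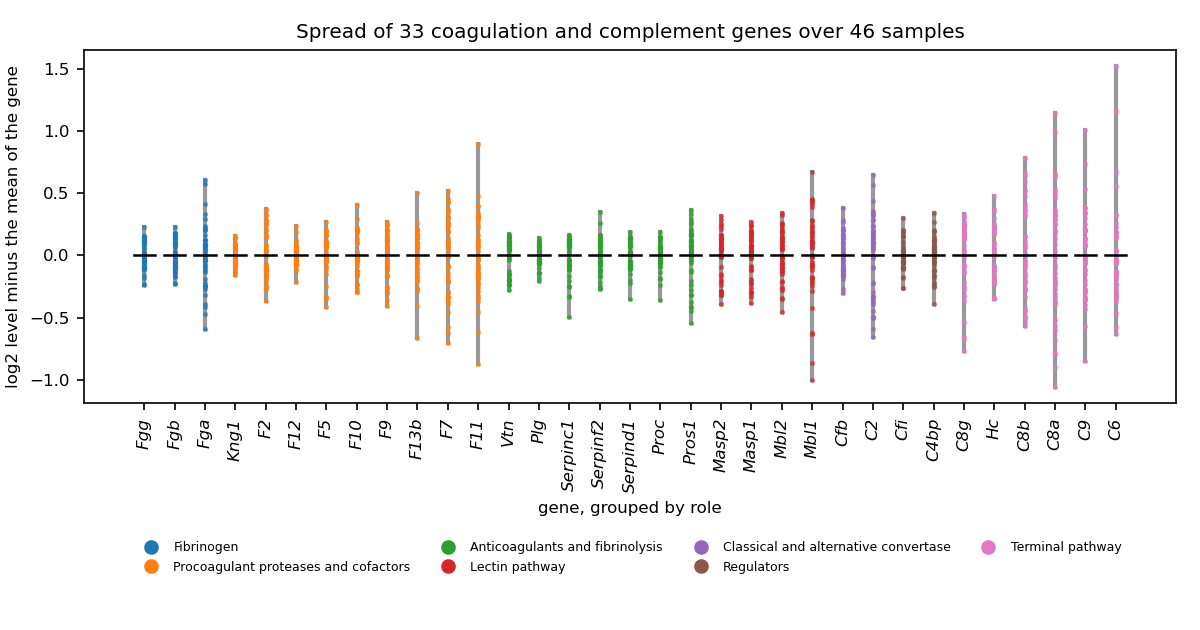
Log2 level of each of the 33 measured genes in each of 46 samples, minus the mean of that gene over the samples, with genes grouped by role. Dots are samples, grey bars run from the lowest to the highest sample, and the widest bars are those of C8a and C6.

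In wild-type offspring, none of the 33 genes passed the test between LPD and CD sires (limma, Benjamini-Hochberg adjusted over all genes), while 487 of all 13542 genes did, which is 3.60%. With the array set as a block, 1 member passed, Serpinc1, the antithrombin gene (0.14, adjusted p = 0.0300, with 9.26% of all genes passing). At an unadjusted p under 0.05 there were 3 members, and 15.9% of all genes. The median difference of the members, LPD minus CD, was 0.04, against 0.00 for all genes, and 21 of the 33 differences were positive. For 26 of the 33 genes the 95% interval of the difference stayed within 0.5 log2 units of 0; the lowest bound was -0.56 and the highest 0.68. For the other 7 genes the interval reached beyond that.

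The member with the smallest p was Fga, the gene of the fibrinogen alpha chain. In the 7 CD wild-type samples it lay between 10.71 and 11.75 with a median of 10.91, and in the 8 LPD samples between 10.93 and 11.59 with a median of 11.33. The groups overlapped. CD replicate 8 at 11.75 was above every LPD sample, while the other 6 CD samples were at or below 11.06. Without replicate 8 the groups still overlapped, since LPD replicate 4 at 10.93 lay below CD replicate 4 at 11.06. The difference was 0.31 ± 0.12 (SE, adjusted p = 0.152). Among 46 fits that each left out 1 sample, it passed only without CD replicate 8. It was then 0.43 (adjusted p = 0.0160, limma, with 1.62% of all genes passing in that fit). The same animal was the highest of the 15 wild-type samples in 10 of 17 acute phase genes. Saa2 (serum amyloid A2) stood at 11.62 against at most 8.11 in the others and Lcn2 (lipocalin 2) at 12.19 against at most 11.01. Cp (ceruloplasmin) went the other way, at 11.46 against at least 11.63 in the others. CD replicate 8 was also the highest wild-type sample for 8 of the 33 members and the lowest for 8. How often it was the highest or lowest over all genes was not counted, so these counts do not set the members apart. CD replicate 8 belonged to array set A, and 68.0% of all genes differed between the array sets.

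Mbl1, which encodes a mannose-binding lectin that starts the lectin route, came next. It ranged from 8.91 to 10.02 (median 9.73) in the CD and from 9.69 to 10.33 (median 9.89) in the LPD wild-type samples. The ranges overlapped, and the difference was 0.36 ± 0.16 (SE, adjusted p = 0.230). F13b, the carrier subunit of the fibrin-crosslinking factor XIII, ranged from 9.31 to 10.07 (median 9.84) and from 9.76 to 10.17 (median 9.99). Its difference was 0.20 ± 0.09 (SE, adjusted p = 0.295), again with overlapping groups. By role, the differences ran from -0.06 to 0.23 over the 9 procoagulant proteases and cofactors. They ran from -0.01 to 0.16 over the 7 anticoagulant and fibrinolysis genes, and all 4 lectin pathway genes had a positive difference, from 0.01 to 0.36. The 6 terminal pathway genes ran from -0.23 for C9 to 0.23 for C8g.

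**Figure D2:**
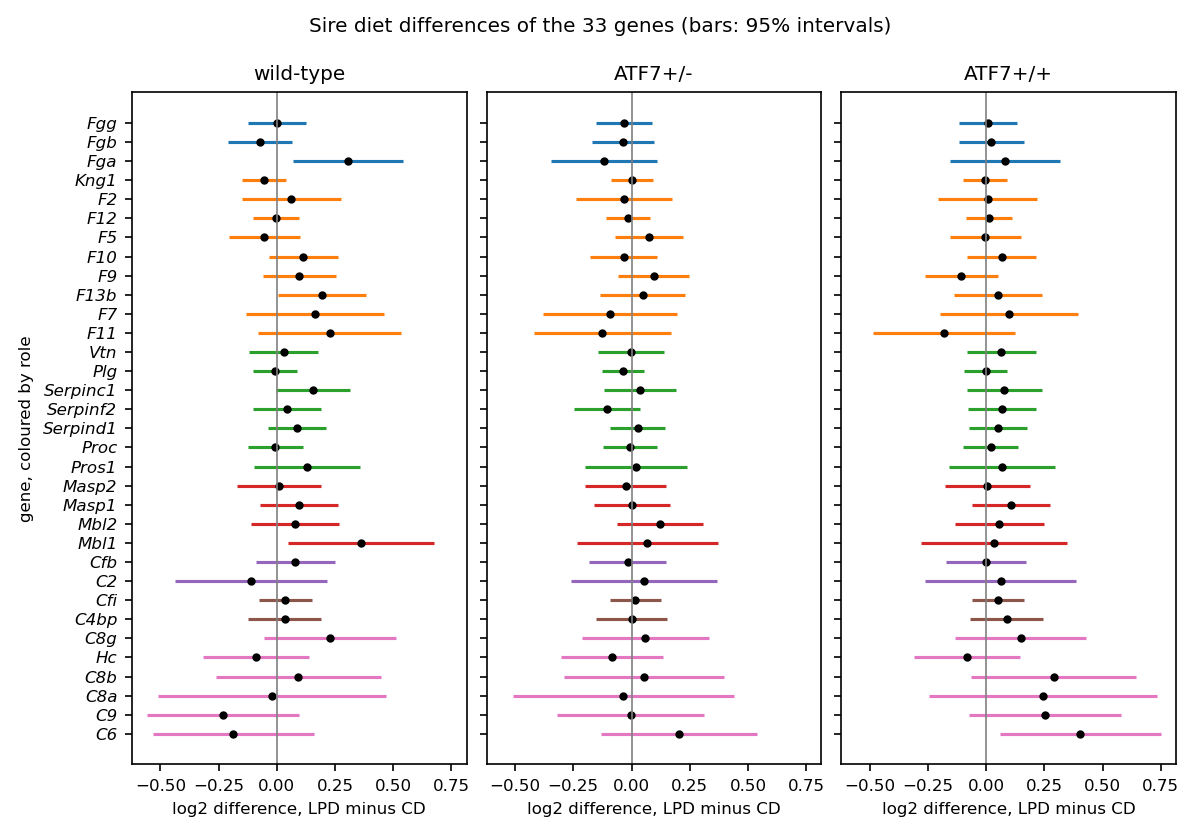
Log2 difference between offspring of LPD and CD sires (LPD minus CD) for the 33 genes in each genotype label. Dots are the fitted differences and bars their 95% intervals, coloured by role; none of the 33 genes passed in any of the 3 panels in this fit, which has no term for the array set.

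The fibrinogen genes lie side by side on mouse chromosome 3 and their 3 products make up 1 protein, so they were compared chain by chain. Their upstream sequences are shown because these 3 genes are set side by side in the results that follow. They are the 200 bases before each RefSeq start site in build GRCm38.p6, at chr3:83025953-83026152 on the plus strand for Fga, chr3:83049864-83050063 on the minus strand for Fgb and chr3:83007524-83007723 on the plus strand for Fgg, each 5′ to 3′. Capitals mark GTTAAT (part of the site of the liver factor HNF1), TTGCNNAA (a C/EBP motif) and CTGGGA (a hexamer of interleukin-6 response elements), on either strand.
Fga: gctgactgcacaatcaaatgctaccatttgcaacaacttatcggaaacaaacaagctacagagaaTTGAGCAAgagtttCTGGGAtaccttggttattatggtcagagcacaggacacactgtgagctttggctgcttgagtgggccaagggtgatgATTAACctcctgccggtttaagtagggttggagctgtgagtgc
Fgb: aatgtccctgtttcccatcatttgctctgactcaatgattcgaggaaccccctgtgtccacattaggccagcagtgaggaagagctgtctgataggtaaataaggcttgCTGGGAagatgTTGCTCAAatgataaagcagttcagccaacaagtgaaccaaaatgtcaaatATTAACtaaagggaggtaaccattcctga
Fgg: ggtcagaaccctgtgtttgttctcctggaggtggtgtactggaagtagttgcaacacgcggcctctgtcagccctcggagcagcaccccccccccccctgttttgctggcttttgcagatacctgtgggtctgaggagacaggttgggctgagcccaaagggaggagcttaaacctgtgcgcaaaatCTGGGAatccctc
Each of the 3 motifs stood in the Fga and Fgb sequences, and only CTGGGA in that of Fgg. These are matches of letters and not sites shown to be bound.

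Fgb and Fgg, the genes of the beta and gamma chains, hardly differed between sire diets in wild-type offspring. Fgb ranged from 12.87 to 13.23 (CD) and from 12.77 to 13.13 (LPD), a difference of -0.07. Fgg ranged from 12.80 to 13.20 and from 12.86 to 13.16, a difference of 0.00. Fgb and Fgg lay near the top of the scale, at percentiles 99.81 and 99.82 of all probe sets. The highest value on any array was 14.23. Whether the arrays resolve differences as well at this level as at the lower levels of Fga was not tested. The chains are therefore not shown to differ in their response to sire diet. The second probe set of Fga gave another picture. It was singled out after its values were seen, when the mean of both Fga probe sets passed the test (0.59, adjusted p = 0.0179, with 3.60% of all genes passing), so its test is not independent of that choice. In the CD wild-type samples it lay between 8.69 and 9.17 in 6 of 7 samples and at 10.35 in replicate 8. In the LPD samples it lay between 9.43 and 10.24 with a median of 10.05. Apart from CD replicate 8, which lay above every LPD sample, all CD samples were below all LPD samples. That sample was set aside here after its values were seen. How many of all genes would separate in this way was not counted. The difference was 0.88 ± 0.20 (SE), or 1.84-fold (adjusted p = 0.00489 when added to the genes tested). Within set A it was 0.82 (adjusted p = 0.108) and within set B 0.95 (adjusted p = 0.00990), and without CD replicate 8 it was 1.09 (adjusted p = 0.000117).

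The second probe set of Fga differed by -0.23 ± 0.19 (SE) between sire diets in ATF7+/- and by 0.16 ± 0.20 in ATF7+/+ offspring, and neither passed. Its lowest, median and highest values were 9.32, 9.95 and 10.68 in CD ATF7+/-, 9.47, 9.71 and 9.98 in LPD ATF7+/-, 8.92, 9.36 and 10.16 in CD ATF7+/+ and 8.84, 9.58 and 9.90 in LPD ATF7+/+. These 4 groups overlapped. The wild-type diet difference exceeded that in ATF7+/- by 1.12 ± 0.27 (SE, adjusted p = 0.0355, limma). That adjusted p was 0.0611 when replicate numbers were blocked inside each label, 0.344 within set A and 0.0338 within set B. It rose above 0.05 in 15 of 46 fits that left out 1 sample, reaching 0.0689 without CD ATF7+/- replicate 1. The samples whose removal did so were wild-type CD 1, 6 and 7, wild-type LPD 2, 6, 7 and 8, ATF7+/- CD 1, 3, 4 and 5, and ATF7+/- LPD 2, 4, 7 and 8. The difference between wild-type and ATF7+/+ was 0.72 and did not pass (adjusted p = 0.477).

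The second minus the first Fga probe set was -1.89 ± 0.27 (SD, n = 7) in CD and -1.32 ± 0.13 (SD, n = 8) in LPD wild-type samples, a shift of 0.58. The shift was -0.11 in ATF7+/- and 0.08 in ATF7+/+ offspring. These shifts are given as a description, since the second probe set was picked for its larger wild-type difference. Whether the shift follows the level of the first probe set was not tested. The annotation assigns both probe sets to both RefSeq transcripts of Fga and so does not say which transcript either reads. Some marker lists of other cell types differed in the same comparison, although few single markers passed. All 8 endothelial markers (median 0.22, 1 passed) and all 8 stellate cell and fibroblast markers (median 0.26, 2 passed) had a positive wild-type diet difference. So did both measured erythroid markers (median 0.77, 1 passed), all 4 measured fetal liver markers (median 0.36, 1 passed) and all 4 measured megakaryocyte and platelet markers (median 0.06, none passed). The mean of the fetal liver list lay between 6.47 and 6.81 in CD and between 6.92 and 7.31 in LPD wild-type samples, with no overlap. The mean of the stellate list lay between 7.91 and 8.45 in CD and between 8.38 and 8.68 in LPD wild-type samples. Other lists did not rise alike. The list mean in CD and LPD wild-type samples was 8.50 and 8.43 for Kupffer cells and 5.77 and 5.67 for granulocytes. For cholangiocytes it was 6.33 and 6.36. Hp, the haptoglobin gene of the acute phase, was lower in LPD wild-type samples (-0.34, adjusted p = 0.00194), and so was Hamp, the hepcidin gene (-4.16, adjusted p = 0.0213). Their part in the Fga result was not tested.

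**Figure D3:**
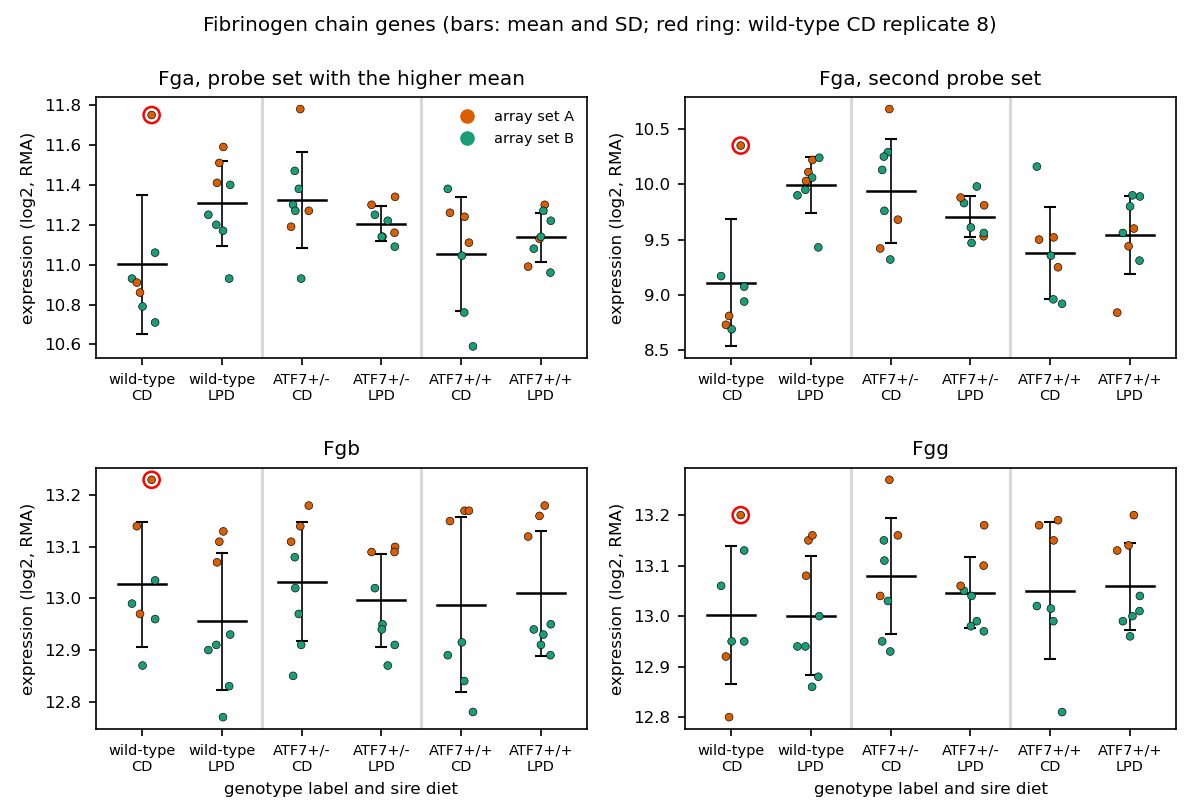
Log2 expression of both Fga probe sets, Fgb and Fgg in each sample by genotype label and sire diet, coloured by array set, with the mean and SD of each group. The red ring marks wild-type CD replicate 8, the highest wild-type CD sample in all 4 panels; for the second Fga probe set the other 6 CD samples lie between 8.69 and 9.17.

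In ATF7+/- offspring, none of the 33 genes passed between sire diets, nor did any gene of the array (0%), and no member had an unadjusted p under 0.05 in limma, while 1.31% of all genes did. The member median was -0.0025, and for 31 of the 33 genes the 95% interval stayed within 0.5 log2 units of 0. Serpinf2, the gene of the plasmin inhibitor alpha-2-antiplasmin, had the smallest p. It ranged from 12.26 to 12.77 (median 12.51) in CD and from 12.15 to 12.59 (median 12.47) in LPD samples, a difference of -0.11 ± 0.07 (SE). The next were Mbl2, the second mannose-binding lectin (10.25, 10.35 and 10.62 against 10.27, 10.52 and 10.70 as lowest, median and highest), and F9, which encodes the hemophilia B protease factor IX (10.02, 10.25 and 10.31 against 10.15, 10.35 and 10.43). Both pairs of groups overlapped.

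In ATF7+/+ offspring, none of the 33 passed, against 0.00738% of all genes (1 gene), and 1 member had an unadjusted p under 0.05 (4.59% of all genes did). That member was C6. It ranged from 7.48 to 8.35 (median 7.75) in CD and from 7.66 to 9.31 (median 8.05) in LPD samples, a difference of 0.40 ± 0.17 (SE, adjusted p = 0.988). The difference was seen in set A, where the 3 LPD samples lay between 8.12 and 9.31 and the 3 CD samples between 7.48 and 7.84 (1.10, adjusted p = 0.0300, with 0.436% of all genes passing in that set). In set B it was -0.04. C8b, the beta chain of component 8, followed with 0.29 ± 0.18 (SE; 10.69, 11.14 and 11.97 against 10.62, 11.62 and 11.85). C9 differed by 0.25 ± 0.16 (SE; 9.01, 9.82 and 10.59 against 9.80, 10.06 and 10.86) and had opposite signs in the 2 sets, with CD and LPD means of 9.42 and 10.37 in set A and of 10.19 and 9.95 in set B. The difference between the sets passed for C9 (1.18, adjusted p = 0.0415) and for F5, the thrombin-making cofactor factor V (-0.50, adjusted p = 0.0486), against 0.236% of all genes. For C6 the difference between the sets did not pass.

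Averaged over the 3 genotype labels, the sire diet difference passed for none of the 33 genes and for 0.805% of all genes. No member had an unadjusted p under 0.05, against 10.1% of all genes. The smallest p was that of Serpinc1, which encodes antithrombin (0.09 ± 0.05, SE, adjusted p = 0.508), and the 95% intervals of all 33 genes stayed within 0.5 log2 units of 0. The diet difference of wild-type less that of ATF7+/- passed for none of the 33 (0.635% of all genes) with 1 at an unadjusted p under 0.05 (9.25% of all genes), which was Fga by its first probe set (0.42 ± 0.16, SE, adjusted p = 0.298). The diet difference of wild-type less that of ATF7+/+ also passed for none (0.0222% of all genes), with 2 at an unadjusted p under 0.05 (7.06% of all genes), C6 (-0.59 ± 0.24, SE) and C9 (-0.48 ± 0.23, SE). For ATF7+/+ less ATF7+/- no gene of the array passed (0%), and no member had an unadjusted p under 0.05, against 2.81% of all genes.

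Between genotype labels, averaged over sire diet, 1 of the 33 genes passed. Cfi, which encodes the protease factor I that inactivates C3b and C4b, was higher in ATF7+/- than in ATF7+/+ livers, with 0.155% of all genes passing in either direction and 0.0812% higher in ATF7+/-. In the 16 ATF7+/- samples it lay between 11.33 and 11.73 (median 11.51), in the 15 ATF7+/+ samples between 11.17 and 11.48 (median 11.37) and in the 15 wild-type samples between 11.25 and 11.64 (median 11.40). The ranges overlapped, and the median of the wild-type samples lay between those of the other labels. The difference was 0.18 ± 0.04 (SE), or 1.13-fold, with an adjusted p of 0.0403 (limma). It was 0.20 in set A (adjusted p = 0.0392) and 0.16 in set B (adjusted p = 0.450). The call was lost in 17 of the 46 fits that left out 1 sample, where the adjusted p went up to 0.0895 (without CD ATF7+/+ replicate 2), and the difference stayed between 0.16 and 0.19. The samples whose removal lost it were ATF7+/- CD 1, 3, 4, 5 and 7, ATF7+/- LPD 1, 2, 5, 6 and 8, ATF7+/+ CD 1, 2 and 3, and ATF7+/+ LPD 1, 2, 3 and 4. In the same comparison all 8 Kupffer cell markers (median 0.19) and 7 of 8 endothelial markers (median 0.17) had a positive difference and none passed; their part in the Cfi result was not tested. The call was also lost with no filter (adjusted p = 0.0596, with 0.0201% of all genes passing), after quantile normalization (0.0696, with 0.214%) or median centring (0.105, with 0.00738%), when only these 2 labels were fitted (0.0768, with 0.0148%) and with the Y-linked level as a covariate (0.0616, with 0.00738%).

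In ATF7+/- minus ATF7+/+, 10 members had an unadjusted p under 0.05, as did 11.4% of all genes. F10, which encodes the factor X protease that activates prothrombin, ranged from 10.81 to 11.26 (median 10.93) in ATF7+/- and from 10.56 to 10.87 (median 10.80) in ATF7+/+ samples, a difference of 0.19 ± 0.05 (SE, adjusted p = 0.107). F7, the factor VII protease that starts clotting with tissue factor, ranged from 9.04 to 9.85 (median 9.49) and from 8.63 to 9.68 (median 9.24), a difference of 0.31 ± 0.10 (SE, adjusted p = 0.181). Masp1, a protease of the lectin pathway, ranged from 10.43 to 10.99 and from 10.34 to 10.92, a difference of 0.19 ± 0.06 (SE, adjusted p = 0.155). C6 lay the other way, from 7.22 to 7.95 and from 7.48 to 9.31, a difference of -0.39 ± 0.12 (SE, adjusted p = 0.155). All 9 procoagulant genes had a positive difference, from 0.01 to 0.31, and 1 of the 6 terminal pathway genes did. With the array set as a block, 5 members passed (Cfi, F10, F2, F7 and Masp1, all positive), with 3.24% of all genes passing. With that block and the Y-linked level together, 3 passed (1.91% of all genes).

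ATF7+/- differed from wild-type in none of the 33 genes (0.00738% of all genes passed), and 4 had an unadjusted p under 0.05 (6.82% of all genes did). The difference was positive for 32 of the 33 members (median 0.07) and for 6254 of all 13542 genes (median -0.0075). Within set A the member median was 0.0017 and within set B 0.12, and 17 of the 33 had the same sign in both sets. F9 led with 0.19 ± 0.05 (SE, adjusted p = 0.242), ranging from 10.02 to 10.43 in ATF7+/- and from 9.78 to 10.32 in wild-type samples. F13b followed with 0.20 ± 0.07 (SE, adjusted p = 0.359), and it was the 1 member that passed with the array set and the Y-linked level in the model (0.694% of all genes). ATF7+/+ differed from wild-type in none of the 33 (0.0222% of all genes passed), and 7 had an unadjusted p under 0.05 (12.4% of all genes did). Masp2, the lectin pathway protease that cuts C4 and C2, led with 0.19 ± 0.06 (SE, adjusted p = 0.177), ranging from 10.86 to 11.41 in ATF7+/+ and from 10.71 to 11.35 in wild-type samples. C8b followed with 0.34 ± 0.12 (SE, adjusted p = 0.214) and Mbl1 with 0.30 ± 0.11 (SE, adjusted p = 0.218). Without CD ATF7+/+ replicate 5, Mbl1 passed (0.38, adjusted p = 0.0417, with 0.871% of all genes passing).

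Between ATF7+/+ and the other labels, more genes passed in set A than in set B, members and other genes alike. In set A alone, 15 members passed between ATF7+/+ and wild-type (8 higher and 7 lower in ATF7+/+), with 28.6% of all genes passing, and in set B alone none did, nor did any gene (0%). Between ATF7+/- and ATF7+/+, 13 passed in set A (22.8% of all genes) and none in set B (0%). C2, which supplies the protease of the classical and lectin convertase, differed between ATF7+/+ and wild-type by -0.46 in set A (adjusted p = 5.3e-05) and by 0.19 in set B (adjusted p = 0.842). F7 differed by -0.41 in set A (adjusted p = 0.00753) and by 0.07 in set B. In set A the 6 ATF7+/+ samples of F7 lay between 8.63 and 9.04 (mean 8.85), and the 6 wild-type samples reached 9.79 (mean 9.25), with overlap at the edge. In set A, F10 lay between 10.59 and 10.73 in ATF7+/+ and between 10.71 and 11.15 in wild-type samples. Masp1 lay between 10.34 and 10.49 in ATF7+/+ and between 10.50 and 10.79 in wild-type samples. The Masp1 ranges nearly touched but did not overlap. How many of all genes did not overlap in this comparison was not counted. The difference between the sets itself passed for 6 members in ATF7+/+ minus wild-type (17.0% of all genes) and for 7 in ATF7+/- minus ATF7+/+ (14.6%). The Kupffer cell markers were low in the same 6 samples: the mean of the 8 markers lay between 7.81 and 8.14 in ATF7+/+ set A samples and between 8.39 and 8.68 in wild-type set A samples. The Y-linked level was high in all 6 of those ATF7+/+ samples, against 4 of 6 in each of the other labels. The part of either in these results was not tested.

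**Figure D4:**
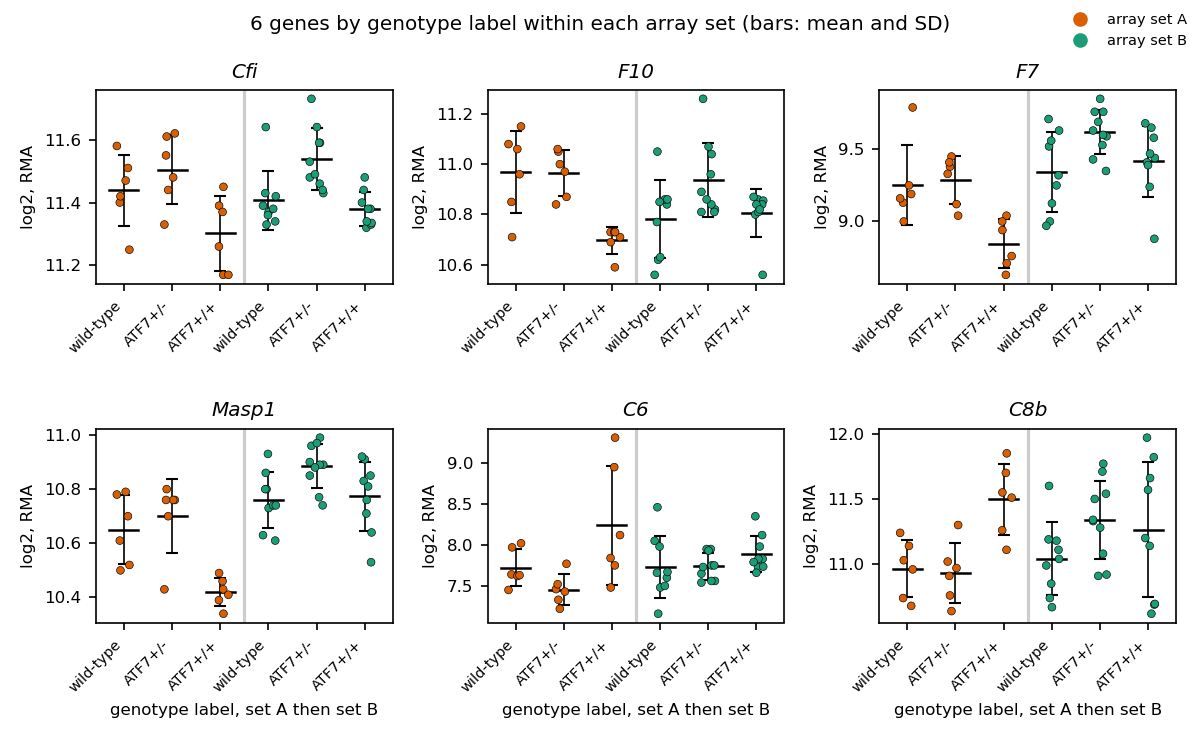
Log2 expression of Cfi, F10, F7, Masp1, C6 and C8b by genotype label, shown separately for array set A (left of each panel) and set B (right), with the mean and SD. In set A the ATF7+/+ samples of Masp1 lie between 10.34 and 10.49, and the lowest wild-type sample of that set lies at 10.50. How many of all genes do not overlap there was not counted.

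Sire diet differences also depended on the set, for some members as for many other genes of the array. In wild-type offspring 7 members passed in set A alone (15.6% of all genes) and none in set B (4.72%). C2 lay between 9.30 and 9.45 in the 3 CD and between 8.62 and 8.66 in the 3 LPD samples of set A, a difference of -0.72. In set B it lay between 8.51 and 9.25 in CD and between 9.06 and 9.21 in LPD samples, a difference of 0.30. Masp2 differed by -0.33 in set A (11.09 to 11.11 against 10.71 to 10.81) and by 0.23 in set B (10.81 to 11.08 against 11.08 to 11.35). Serpinc1 lay between 12.00 and 12.17 in CD and between 12.41 and 12.46 in LPD samples of set A, and differed by 0.32 there and by 0.02 in set B. The difference between the sets passed for C2 (-1.03, adjusted p = 0.000328), Masp2 (-0.55, adjusted p = 0.00131), Serpinc1 (0.30, adjusted p = 0.00494) and F9 (0.42, adjusted p = 0.0430), against 9.45% of all genes. In the set A samples alone, 4 members passed in the mean over labels (10.9% of all genes), 1 in wild-type less ATF7+/- (2.07%) and 4 in wild-type less ATF7+/+ (3.08%). With both the array set and the Y-linked level in the model, Serpinc1 passed between wild-type sire diets (10.6% of all genes) and in the mean over labels (3.99%). Set A had 3 samples a group, so that single livers weigh heavily in these values.

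The labels allow offspring of either sex, and the mean of 3 Y-linked genes split the samples into 32 with a high level (7.36 or more) and 14 with a low level (4.19 or less). This comparison was added after the data were seen. With a mean for each group and array set, 1 of the 33 members passed, against 0.642% of all genes. C8b was higher where the Y-linked level was high, by 0.37 ± 0.09 (SE, adjusted p = 0.0458, limma). It lay between 10.69 and 11.97 (median 11.25) in the 32 samples and between 10.62 and 11.50 (median 10.91) in the 14, and these ranges overlapped. C8a, its neighbour on chromosome 4, differed by 0.32 ± 0.10 (SE, adjusted p = 0.114) and F7 by -0.20 ± 0.06 (SE, adjusted p = 0.0791), and neither passed. Without the ATF7+/+ samples of set A, which all had a high level, the adjusted p of C8b was 0.0594. C8b differed by 0.23 within set A (adjusted p = 0.453) and by 0.43 within set B (adjusted p = 0.316).

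**Figure D5:**
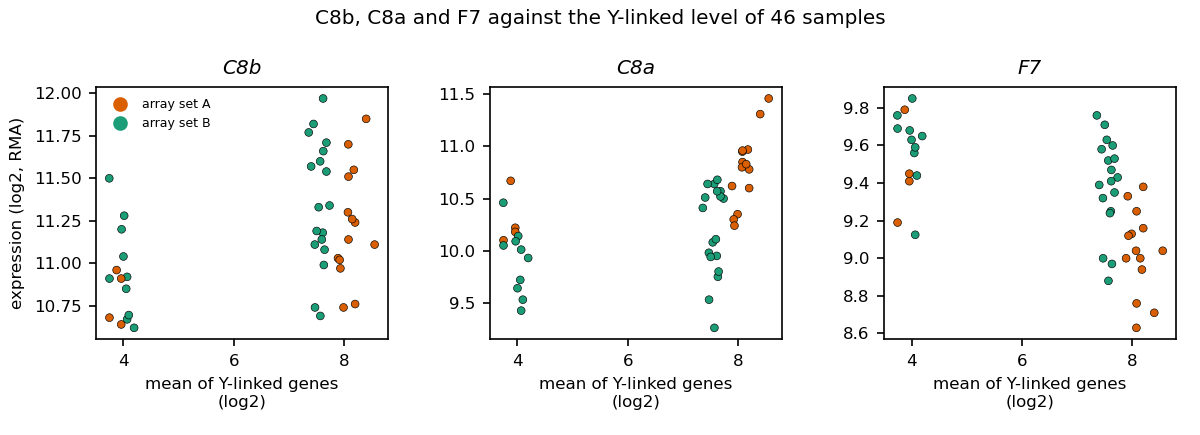
Log2 expression of C8b, C8a and F7 in each of 46 samples against the mean log2 level of 3 Y-linked genes, coloured by array set. The 14 samples on the left have a Y-linked level of 4.19 or less and the 32 on the right of 7.36 or more; C8b reaches 11.50 on the left and 11.97 on the right.

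Among members less than 100000 bases apart in the genome, 4 of 6 pairs passed a permutation test of the correlation against 0 in both array sets. Correlations were computed within each array set on residuals from the group means and the Y-linked split described above. They were added after the data were seen, and p-values were adjusted over the 12 tests. The permutations treated the residuals as independent although those means had been removed, with 3 samples a group in set A, so these p-values tend to be too small. How many of all pairs would pass the same rule was not counted. Pairs of members in general tended to correlate above 0, so passing a test against 0 does not set neighbours apart. The median correlation over all 528 pairs of members was 0.17 in set A (18 samples) and 0.37 in set B (28 samples), and the 95th percentile was 0.69 and 0.71. Of the 4 pairs, Fga with Fgg and Fgb with Fgg lay above that percentile in both sets, F7 with F10 in set A only, and Fga with Fgb in neither. Fga and Fgg had r = 0.90 in set A (rho = 0.84) and 0.73 in set B (rho = 0.71), each with an adjusted permutation p of 3e-05, from the smallest p that the permutations can give. Without the 2 samples farthest from the median, r was 0.76 and 0.69. Fgb and Fgg had r = 0.81 (rho = 0.74, adjusted permutation p = 0.000257) and 0.85 (rho = 0.89, 3e-05), which became 0.54 and 0.82. Fga and Fgb had r = 0.64 (rho = 0.54, adjusted permutation p = 0.0101) and 0.60 (rho = 0.69, 0.00126), which became 0.53 and 0.58.

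F7 and F10, neighbours on chromosome 8, had r = 0.80 in set A (rho = 0.65) and 0.68 in set B (rho = 0.63), both with an adjusted permutation p of 0.000257. Without the 2 farthest samples r was 0.53 and 0.46. C8a and C8b had r = 0.87 in set B (rho = 0.79, adjusted permutation p = 3e-05) and 0.40 in set A (rho = 0.45, 0.107). C2 and Cfb, the proteases of the classical and alternative convertases on chromosome 17, passed in neither set, with r = -0.02 and 0.36.

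RefSeq promoters were listed for 28 of the 35 members; Proc, Plg, Kng1, C2, Cfb, Cfi and Masp1 were not matched. The 250 bases before the start were searched on either strand, and a gene counted if any of its promoters matched. The partial HNF1 site GTTAAT stood in 8 of 28 (28.6%: F13b, Fga, Fgb, Vtn, Hc, C8a, C8b and C4bp) against 7.49% of 27025 genes with a promoter. The C/EBP motif TTGCNNAA stood in 7 (25.0%) against 10.8%, and CTGGGA in 12 (42.9%) against 29.8%. The full cAMP response element TGACGTCA, the kind of element that ATF factors bind, stood in none of the 28, against 1.77% of all genes with a promoter. Its core TGACG stood in 4 (14.3%: F2, F9, C4bp and Masp2) against 19.8%. The CCAAT box (CCAAT, 21.4% against 37.5%) and TATAAA (10.7% against 14.3%) were also counted, as were an HNF4 direct repeat (CAAAGTCCA, 0% against 0.451%) and a STAT3 motif (TTCCNGGAA, 7.14% against 1.09%). Motifs can overlap one another, and promoters were not matched for base composition.

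Beyond the members, 50 other genes of clotting and complement were listed and 37 were measured. None passed in any of the 10 comparisons (limma), with between 0 and 10 of them at an unadjusted p under 0.05 in a comparison, 8 in that of wild-type sire diets (15.9% of all genes) and 10 in ATF7+/- minus wild-type (6.82%). Colec11, a lectin pathway collectin, came closest, with 0.19 in ATF7+/- minus ATF7+/+ (adjusted p = 0.0941) and 0.20 between sire diets in wild-type offspring (adjusted p = 0.0944). Of 18 measured genes for regulators of hepatic secretory genes, 1 passed: Onecut1, which encodes the liver transcription factor HNF6. It was higher in LPD than in CD ATF7+/+ livers (1.28 ± 0.24, SE, adjusted p = 0.0493, with 0.00738% of all genes passing) and averaged over labels (0.67 ± 0.14, SE, adjusted p = 0.00826, with 0.805% passing).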

How the data were processed

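The deposited table held log2 values for 35556 probe sets of Affymetrix arrays, which the authors made with RMA in Expression Console, per the submitters' processing notes; versions and the genome build are not given in the sources used here. Per gene, the probe set with 1 gene symbol and the highest mean was kept if its mean reached the 40th percentile of all probe sets (5.46), giving 13542 genes. Arrays of a group were called near-identical where the SD of their difference over variable genes was under 1.5 times that over stable genes (1.26 and 1.29; next 1.91) and averaged. Array sets came from the widest gap on the first principal component of unannotated probe sets.

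Tests used limma 3.58.1 in R 4.3.3: 6 group means, 10 comparisons, Benjamini-Hochberg adjustment over all genes at 0.05. Scripts were tested on simulated data. The number of arrays limits the precision. Replicate numbers deviated together within ATF7+/- (r from 0.18 to 0.74) and ATF7+/+ (0.30 to 0.67), where same-numbered arrays lay in the same array set. In wild-type, r was 0.22, 0.07 and 0.50 for replicates 3, 4 and 6, whose arrays lay in the same set. It ran from -0.47 to -0.22 for the wild-type pairs in different sets. The reported fit had no block, as the study's design text named no covariate. Members and gene lists were chosen with earlier results of these data known. Members past the threshold, or else the 3 with the smallest p, were named in each comparison with their sample values; for other lists, genes past the threshold or closest to it. Promoter sequences are RefSeq's. Correlations used scipy 1.17.1 with 100000 permutations. Alternatives covered the filter, normalization, probe set choice, variance prior, blocks, covariates, array sets and each sample left out.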

Additional observations from a re-analysis of the deposited data

Results flagged for a closer look

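Within groups of 7 or 8 samples, the distance of the lowest or highest sample to its nearest neighbour was divided by the range of the group. This ratio exceeded Dixon's critical value in 18 of 204 gene and group combinations. Chance flags about 1 in 20 groups. Wild-type CD replicate 8 held 3 of them: Fga at 11.75, the second Fga probe set at 10.35 and F11, the factor XI gene, at 8.19. ATF7+/+ CD replicate 5 held 3 low values, F9 at 9.83, F12 at 11.27 and Proc, the protein C gene, at 10.58. The other 12 were spread over other samples. Low values were F5 at 10.66 in ATF7+/- CD replicate 2, F9 at 10.02 in ATF7+/- CD replicate 8, F13b at 9.68 in ATF7+/- CD replicate 6, Cfi at 11.17 in ATF7+/+ LPD replicate 2 and the second Fga probe set at 9.43 in wild-type LPD replicate 4. Vtn, the vitronectin gene, stood at 12.76 in ATF7+/+ CD replicate 2. High values were F11 at 9.46 in ATF7+/- LPD replicate 5, Proc at 11.13 in ATF7+/- LPD replicate 8, C6 at 7.98 in wild-type LPD replicate 8 and at 8.35 in ATF7+/+ CD replicate 6, C8b at 11.60 in wild-type CD replicate 3 and C9 at 10.86 in ATF7+/+ LPD replicate 3. The diet difference of the second Fga probe set in wild-type exceeded that in ATF7+/- by 1.12 (adjusted p = 0.0355, limma). That probe set was chosen after its values were seen, and the call was lost with replicates blocked inside labels (adjusted p = 0.0611), within set A (0.344) and in 15 of 46 fits that left out 1 sample.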

How the results depend on the processing

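Of the alternatives, the array set moved the counts of members most. In set A alone the counts were 7 (wild-type diet), 1 (ATF7+/+ diet), 4 (mean over labels), 15 (ATF7+/+ minus wild-type), 13 (ATF7+/- minus ATF7+/+), 1 (wild-type less ATF7+/- diet difference) and 4 (wild-type less ATF7+/+); in set B alone the single call in ATF7+/- minus ATF7+/+ became 0. With the array-set block the wild-type diet count was 1 and that of ATF7+/- minus ATF7+/+ was 5. With this block and the Y-linked covariate they were 1 and 3, and the mean over labels and ATF7+/- minus wild-type gave 1 each. The mean of all probe sets gave 1 in the wild-type diet comparison. The call in ATF7+/- minus ATF7+/+ became 0 with no filter, quantile normalization, median centring, only the groups compared, and the Y-linked covariate. Leaving out 1 sample gave 0 to 1 members for the wild-type diet, ATF7+/+ minus wild-type and ATF7+/- minus ATF7+/+, and 0 for the other comparisons. Among the named results, signs turned for C6 in the ATF7+/+ diet comparison (-0.0353 in set B), for C9 there (-0.10 with array weights, -0.23 in set B) and for F11 in the wild-type less ATF7+/+ diet difference (-0.0050 with array weights, -0.21 in set B); the cause was not tested. Over all 33 members, the sign was the same in both sets for 10 in the ATF7+/+ diet comparison and for 21 in that of wild-type, where C2 went from -0.11 to 0.30 in set B. With the replicate number as a block the Cfi difference, ATF7+/- minus ATF7+/+, was 0.18 (adjusted p = 0.0284, limma), and no count of members changed. The block within labels could not be fitted for genotype comparisons, and a fit of only the groups compared does not exist for the mean over labels.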
